A study of Homo sapiens with 6 samples.

Results

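The cadherin and epithelial-mesenchymal transition (EMT) genes described here are CDH1, CDH2, CDH3, VIM, FN1, SNAI2, ZEB1, ZEB2 and CD44. They were chosen by gene symbol, from a list drawn up with the RC48 against Control values of these libraries known, and all 9 were found among the 16390 genes listed for each library. SW780 is an established human bladder cancer cell line that the study used as a luminal type, and RC48 is a conjugate of an antibody to ERBB2 with a drug that inhibits microtubules. Total RNA was sequenced in 3 Control libraries and in 3 libraries of cells given RC48 (25 µg/ml). The 2 groups share the cell line, and no further alteration of the cells is named in the labels. The exposure time, and whether the 3 libraries of a group came from separate cultures, are not given in the sources used here, so p-values measure the spread between these libraries, which may be technical. The comparison asks how RNA levels in the exposed cells differed from those in the Control cells.

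EMT is a change of cell state in which epithelial cells loosen their contacts with each other, take up contacts with the extracellular matrix and become more motile. E-cadherin, the product of CDH1, holds epithelial neighbours together at adherens junctions, and a shift towards N-cadherin, the product of CDH2, is a long-used sign of the transition. The factors SNAI2, ZEB1 and ZEB2 bind E-box sequences and repress CDH1, whereas VIM and FN1 are classical mesenchymal genes. In the bladder, CD44 and CDH3 are genes of basal urothelial cells.

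Estimated counts summed to between 16453233 and 17026155 in Control libraries and between 17271978 and 17988030 in RC48 libraries. Levels are given as CPM, counts scaled to library size by TMM, unless TPM, which is also scaled by gene length, is named. Control replicates 1 and 2 differed by little more than counting noise (chi-square per degree of freedom 1.44 over 11976 genes), against 9.51 to 136 for the other pairs within a group. The log2 ratio of a library to the Control mean rose with the GC content of genes in RC48 replicate 1 (Spearman's rho 0.74 across 13000 genes) and RC48 replicate 3 (0.58), and not in RC48 replicate 2 (-0.02). A correction for this trend is given beside the genes below whose call, sign or size (by over 1.5 times) it changed. The epithelial keratins KRT7, KRT8, KRT18 and KRT19 had means from 1692 CPM (KRT18 in RC48) to 7634 CPM (KRT7 in RC48), and the luminal markers GATA3, FOXA1 and PPARG from 109 CPM (FOXA1 in RC48) to 252 CPM (GATA3 in RC48). The luminal keratin KRT20 measured 1.97, 2.03 and 1.94 CPM in Control libraries and 0.486, 0.514 and 1.00 CPM in RC48 libraries (log2 fold change -1.55, edgeR adjusted p = 0.0489), a call made in 11 of 16 alternatives and lost without any of the Control replicates (adjusted p of up to 0.232). Of the 6 listed luminal markers, 5 were tested and KRT20 alone was called, beside 0.23% of all genes called lower. The log2 fold change was positive for 3 and negative for 2 of the 5, with a median of 0.0032. The 6 markers summed to 558 to 568 CPM in Control and 512 to 591 CPM in RC48 libraries.

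The only member that differed significantly between the groups was CDH2, which was 1.67-fold higher in RC48 libraries. CDH1 did not fall significantly, and SNAI2, FN1 and CDH3 were higher on average without passing the test. VIM and ZEB1 were near the floor in every library. Of the 9 members, 7 passed the filter on low counts and 1 was called at an adjusted p under 0.05, beside 2.21% of all 13055 genes tested (1.98% higher and 0.23% lower). These members were listed with fold changes of the same contrast known, so the count and the p-values below describe them and are not independent support. The median log2 fold change of the 7 members was 0.29, and that of all genes tested was 0.02.

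**Figure D1:**
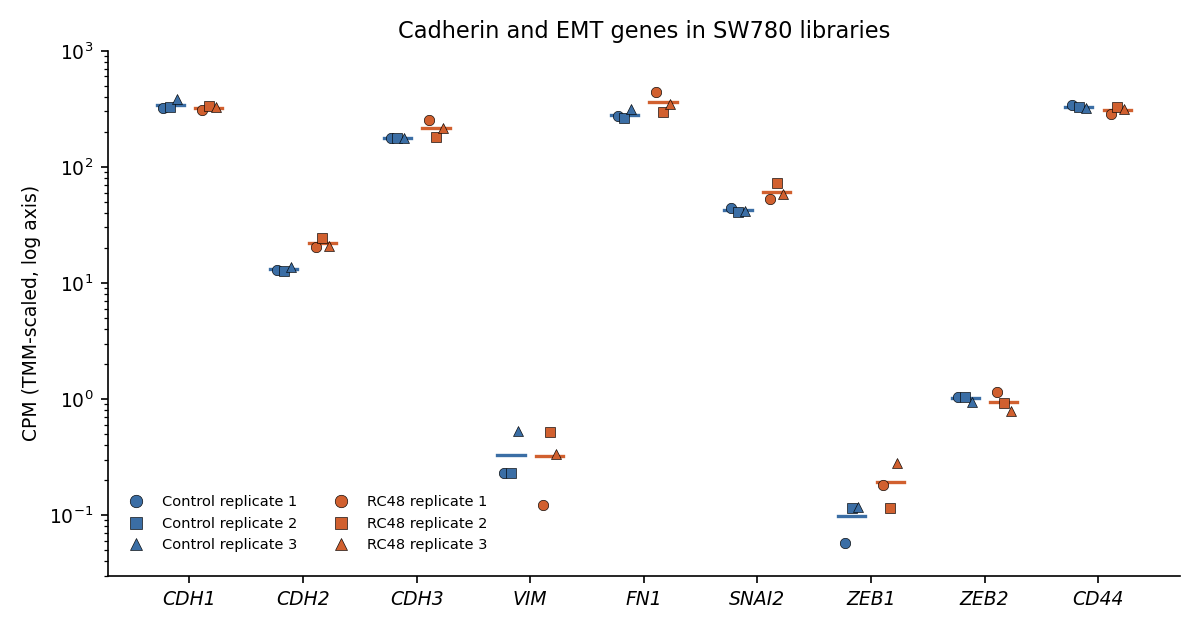
CPM of the 9 genes on a log axis in the 3 Control libraries (blue) and the 3 RC48 libraries (orange), with the marker shape giving the replicate and the line giving the group mean. CDH2, SNAI2 and CDH3 lie higher in every RC48 library than in every Control library, whereas VIM, ZEB1 and ZEB2 lie near or below 1 CPM in both groups.

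Promoter windows of 250 bases before annotated start sites were read from a RefSeq table (GRCh38.p14), in which 6 of the 9 members matched with 13 windows (CDH2, VIM, FN1, ZEB1, ZEB2 and CD44). The search covered both strands for the E-box letters CACCTG and CAGGTG, which SNAI2 and the ZEB factors are known to bind, the CCAAT box as CCAAT or ATTGG, and the palindrome TTCNNNGAA known from STAT factors. A CCAAT box was present in 3 windows, both of CDH2 and that of FN1, against 32% of all 35116 windows. The E-box was present in 2 of the 7 windows of ZEB1 and in no other member's window, against 17.5% of all windows. The STAT palindrome was present in 0 of the 13 windows, against 6.57% of all windows. The stretches of 30 bases around the CCAAT box of CDH2, the member that was called, and of FN1, another mesenchymal member, are shown 5′ to 3′ on the gene's strand with the matched letters in capitals.
CDH2: cagctcgctctccATTGGcggggagcggag
FN1: cccggagcccgggCCAATcggcgcgcggtc
The CDH2 stretch is at chr18:28177190-28177219 on the minus strand, and its match begins 76 bases before the RefSeq start. A longer CDH2 transcript of GENCODE v29 covers it as exon and untranslated region. The FN1 stretch is at chr2:215436214-215436243 on the minus strand, its match begins 162 bases before the start, and no GENCODE v29 exon covers it. A match describes the letters in a window and not a bound site.

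Positions of the genes are those of GENCODE v29 on GRCh38, the build that the submitters name as hg38. CDH3 (chr16:68636189-68722616) and CDH1 (chr16:68737225-68835548) lie next to each other on the plus strand, and CDH2 (chr18:27950966-28177446) lies on the minus strand of another chromosome.

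N-cadherin RNA was low in Control cells and higher after RC48. CDH2 measured 13.01, 12.7 and 13.7 CPM in Control replicates 1, 2 and 3, and 20.5, 24.4 and 21.0 CPM in RC48 replicates 1, 2 and 3. The Control values lay within 1 CPM of each other, every RC48 library was above every Control library, and RC48 replicate 2 was the highest. The means were 13.1 ± 0.470 CPM in Control and 22.0 ± 2.16 CPM in RC48 libraries (SD, n = 3 each). This corresponds to a log2 fold change of 0.74 with a 95% interval of 0.42 to 1.06 (SE 0.137, edgeR adjusted p = 0.0393). A two-sided exact permutation test gave p = 0.1, the smallest that 3 against 3 libraries allow. The log2 fold change of CDH2 was positive in all 17 alternative settings, from 0.48 to 0.80, and 9 of the 17 called it. The call was lost without Control replicate 1 (adjusted p = 0.266), Control replicate 2 (0.265), Control replicate 3 (0.193) or RC48 replicate 3 (0.202), and when Control replicates 1 and 2 were averaged to 1 library (0.262). It was also lost with the replicate block (0.0783), with library sizes alone (0.0807) and with limma on log2(TPM+0.1) over 5 libraries without RC48 replicate 2 (0.0549). The adjusted p was 0.00145 after correcting for GC content.

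E-cadherin RNA was abundant in both groups. CDH1 measured 321, 327 and 382 CPM in Control libraries and 307, 335 and 330 CPM in RC48 libraries. The groups overlapped, Control replicate 3 being the highest and RC48 replicate 1 the lowest. The log2 fold change was -0.09 with a 95% interval of -0.36 to 0.19 (edgeR adjusted p = 0.643; -0.14 after correcting for GC content), so that a fall beyond 0.36 on the log2 scale lay outside the interval. CDH1 was called in 0 of the 17 alternatives.

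P-cadherin, the product of CDH3, is a cadherin of basal epithelial layers. CDH3 measured 177, 176 and 178 CPM in Control libraries and 251, 182 and 215 CPM in RC48 libraries. The Control values were nearly equal and below every RC48 value, RC48 replicate 2 being only just above them. The log2 fold change was 0.29 with a 95% interval of -0.03 to 0.61 (edgeR adjusted p = 0.281). Without RC48 replicate 2 it was 0.39 and passed the test (adjusted p = 0.0466), beside 28.3% of all genes called in that fit. It was 0.07 after correcting for GC content (adjusted p = 0.576), and the transcripts of CDH3 have a higher GC content than those of 67.5% of the genes.

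Set against E-cadherin in the same library, which cancels the scaling between libraries, the N-cadherin share was higher after RC48. There were 4.05, 3.89 and 3.58 CDH2 counts per 100 CDH1 counts in Control libraries and 6.68, 7.29 and 6.37 in RC48 libraries. The groups did not overlap, and the ratio of the means, 3.84 ± 0.241 and 6.78 ± 0.471 (SD, n = 3 each), was 1.77. For P-cadherin there were 55.0, 53.7 and 46.6 CDH3 counts per 100 CDH1 counts in Control libraries and 81.9, 54.4 and 65.1 in RC48 libraries, and RC48 replicate 2 fell among the Control values. Both ratios were chosen with the values of their genes known and carry no test. They are ratios of counts and do not give the relative number of molecules, since the genes differ in length.

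**Figure D2:**
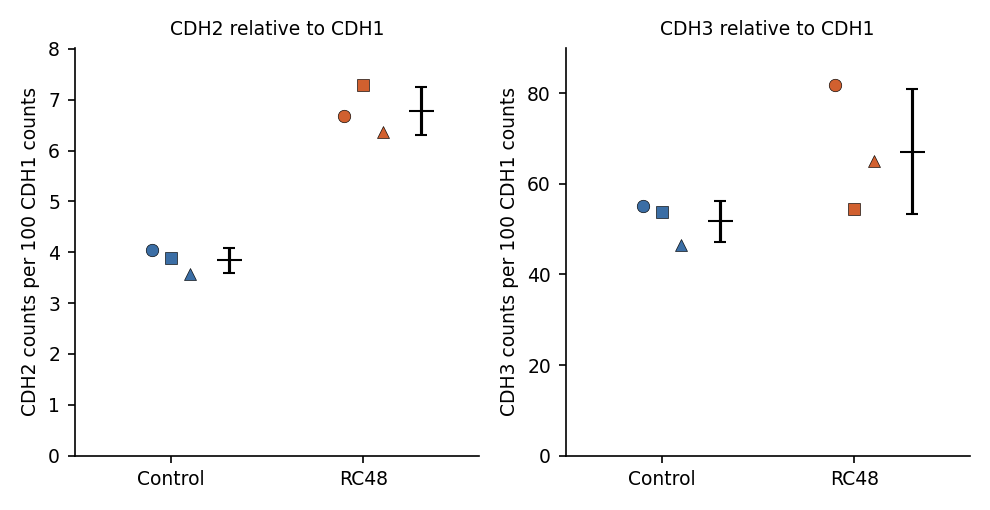
Counts of CDH2 (left) and CDH3 (right) per 100 counts of CDH1 in each library, on axes starting at 0. Circles, squares and triangles are replicates 1, 2 and 3 of Control (blue) and RC48 (orange), and the black bars are the mean and SD of 3 libraries. The 3 RC48 libraries lie between 6.37 and 7.29 for CDH2, above the Control libraries at 3.58 to 4.05, whereas the groups overlap for CDH3.

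Among the EMT transcription factors, SNAI2 was the member expressed at a substantial level. SNAI2, or Slug, measured 44.3, 40.9 and 41.2 CPM in Control libraries and 53.1, 72.2 and 58.3 CPM in RC48 libraries. Every RC48 library was above every Control library, with RC48 replicate 2 the highest, and CDH2, SNAI2 and CDH3 were the 3 members without overlap, beside 17.4% of all genes tested with RC48 higher and 14.1% with RC48 lower. The mean of SNAI2 was 1.45-fold higher in RC48, a log2 fold change of 0.54 with a 95% interval of 0.19 to 0.88 (SE 0.148), and did not pass the test (edgeR adjusted p = 0.14, exact permutation p = 0.1). After correcting for GC content it was 0.75 and passed (adjusted p = 0.00175), beside 7.85% of 13000 genes called in that fit (4.32% higher and 3.53% lower). It also passed without RC48 replicate 1 (adjusted p = 0.00598), beside 6.82% of all genes called in that fit. Without RC48 replicate 2 the log2 fold change was 0.40 and passed (adjusted p = 0.0495), beside 28.3% of all genes.

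ZEB1 and ZEB2, zinc-finger repressors of CDH1, were barely detected. ZEB1 had 1, 2 and 2 counts in Control libraries and 3, 2 and 5 counts in RC48 libraries, and did not enter the test. Summed over a group, this was 0.0970 CPM in Control (exact Poisson 95% interval 0.0315 to 0.226, counting error only) and 0.193 CPM in RC48 (0.0923 to 0.354), so a difference was not detectable at this depth. ZEB2 had 18, 18 and 16 counts in Control libraries and 19, 16 and 14 counts in RC48 libraries. The groups overlapped, and the log2 fold change of -0.09 had a 95% interval from -0.69 to 0.50 (edgeR adjusted p = 0.827). After correcting for GC content it was 0.22 and did not pass (adjusted p = 0.705).

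Fibronectin was the abundant mesenchymal product among the members and vimentin was nearly absent. FN1 (chr2:215360440-215436172, minus strand), which encodes a matrix glycoprotein, measured 272, 261 and 313 CPM in Control libraries and 439, 299 and 347 CPM in RC48 libraries. RC48 replicate 1 was the highest library, and RC48 replicate 2 was below Control replicate 3, so the groups overlapped. The log2 fold change was 0.36 with a 95% interval of -0.02 to 0.74 (edgeR adjusted p = 0.271, exact permutation p = 0.2). It passed the test without RC48 replicate 2 (0.48, adjusted p = 0.0454), beside 28.3% of all genes called in that fit. Without RC48 replicate 1 it was 0.19 (adjusted p = 0.343). After correcting for GC content it was 0.59 and did not pass (adjusted p = 0.149).

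VIM (chr10:17228259-17237593, plus strand) encodes vimentin, the intermediate filament of mesenchymal cells. It had 4, 4 and 9 counts in Control libraries and 2, 9 and 6 counts in RC48 libraries, and was removed by the filter. Both groups summed to 17 counts, or 0.330 CPM in Control (exact Poisson 95% interval 0.192 to 0.528) and 0.327 CPM in RC48 (0.191 to 0.524). No difference was detectable at this depth.

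CD44 (chr11:35138870-35232402, plus strand), the cell-surface receptor for hyaluronan, was among the most abundant members. It measured 338, 329 and 321 CPM in Control libraries and 287, 331 and 316 CPM in RC48 libraries. RC48 replicate 1 was the lowest and RC48 replicate 2 lay within the Control range. The log2 fold change was -0.08 with a 95% interval of -0.34 to 0.17 (edgeR adjusted p = 0.622; -0.03 after correcting for GC content), and CD44 was called in 0 of the 17 alternatives. Counts of isoforms were not analysed here.

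**Figure D3:**
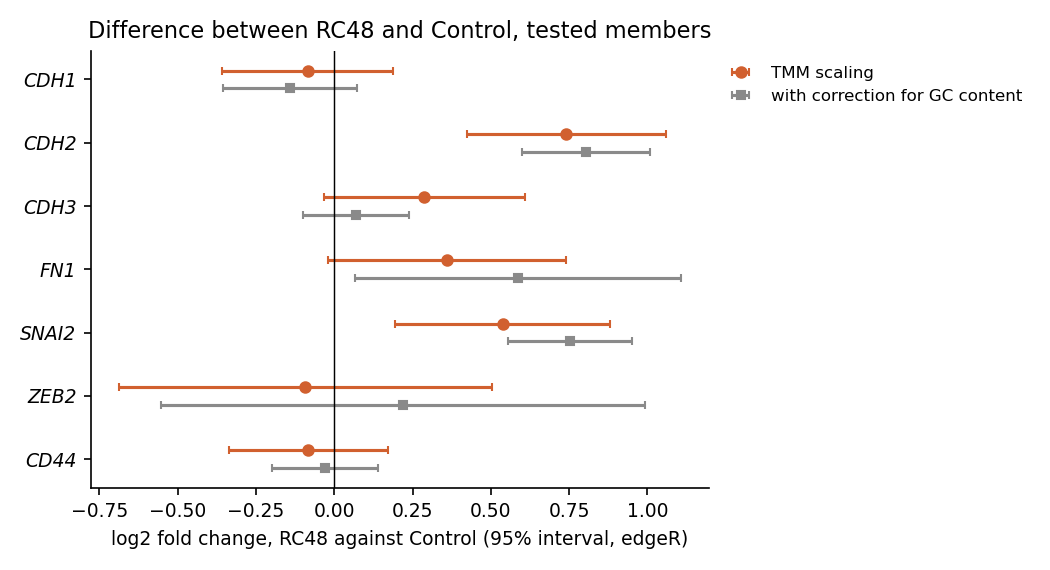
Log2 fold change of RC48 against Control for the 7 members tested, with 95% intervals from edgeR, without (circles) and with (squares) the correction for GC content. The intervals of CDH2 and SNAI2 lie above 0 in both fits, and that of FN1 lies above 0 only with the correction. Those of CDH1, CDH3, ZEB2 and CD44 include 0 in both. The intervals are not adjusted for the number of genes tested.

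Levels were compared between genes by the TPM of the authors, since CPM does not account for gene length. In Control libraries CDH1 was the most abundant member at 135 ± 20.6 TPM, followed by CD44 at 120 ± 3.75, and the ranges of the 2 overlapped. CDH3 followed at 92.1 ± 6.21 TPM, FN1 at 62.5 ± 9.53 and SNAI2 at 39.7 ± 2.11 (SD, n = 3). The other neighbours in the order did not overlap. CDH2, at 6.24 ± 0.552 TPM, stood far below CDH1 and CDH3, and VIM (0.32 TPM), ZEB2 (0.2 TPM) and ZEB1 (0.0333 TPM) closed the order.

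In the RC48 libraries with TPM, replicates 1 and 3, CDH2 stood at 8.73 and 9.44 TPM, still more than 10-fold below CDH1 at 107 and 122 TPM. CD44 stood at 96.5 and 110 TPM, below its 3 Control values of 119, 116 and 123 TPM. On the TPM scale the median log2 fold change of all genes lay at -0.11 to -0.12 in these 5 libraries, so that levels of RC48 libraries are shifted down relative to CPM.

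The genes whose log2 CPM followed CDH1 most closely over the 6 libraries, among 9997 genes with a mean of at least 10 CPM, were KIAA1109 (Pearson's r = 0.99), WDFY3 (0.98) and ZNF841 (0.98). Those closest to CD44 were DMRTA2, GINM1 and SPCS2, each with r above 0.99. All points come from the same 6 libraries and share their group difference and their GC trend, and the correlations are a description. None of these 6 genes was called.

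Genes that work with the members were counted in 8 lists of 130 genes in all, of which 119 were listed and 102 tested. Of the 102, 8 were called (7.84%) and all 8 were higher in RC48, beside 1.98% of all genes tested called higher. The lists were chosen with earlier results of these data known. The counts for them, here and below, therefore describe the lists and are not independent support. The 8 genes fell in 2 lists, 6 among mesenchymal genes and 2 in the TGF-β pathway. The median log2 fold change of the 102 genes was 0.19, against 0.02 for all genes tested. The 8 calls fell to 0 without Control replicate 1, Control replicate 3 or RC48 replicate 3, and to 1 without Control replicate 2. There were 24 calls without RC48 replicate 1, where 6.82% of all genes tested were called (4.61% higher and 2.21% lower), and 41 without RC48 replicate 2, where 28.3% of all genes were called. When Control replicates 1 and 2 were averaged, 0 of the 102 were called. Without RC48 replicate 2, 13 of the 41 calls were lower in RC48, beside 14.1% of all genes called lower in that fit and 14.1% called higher.

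**Figure D4:**
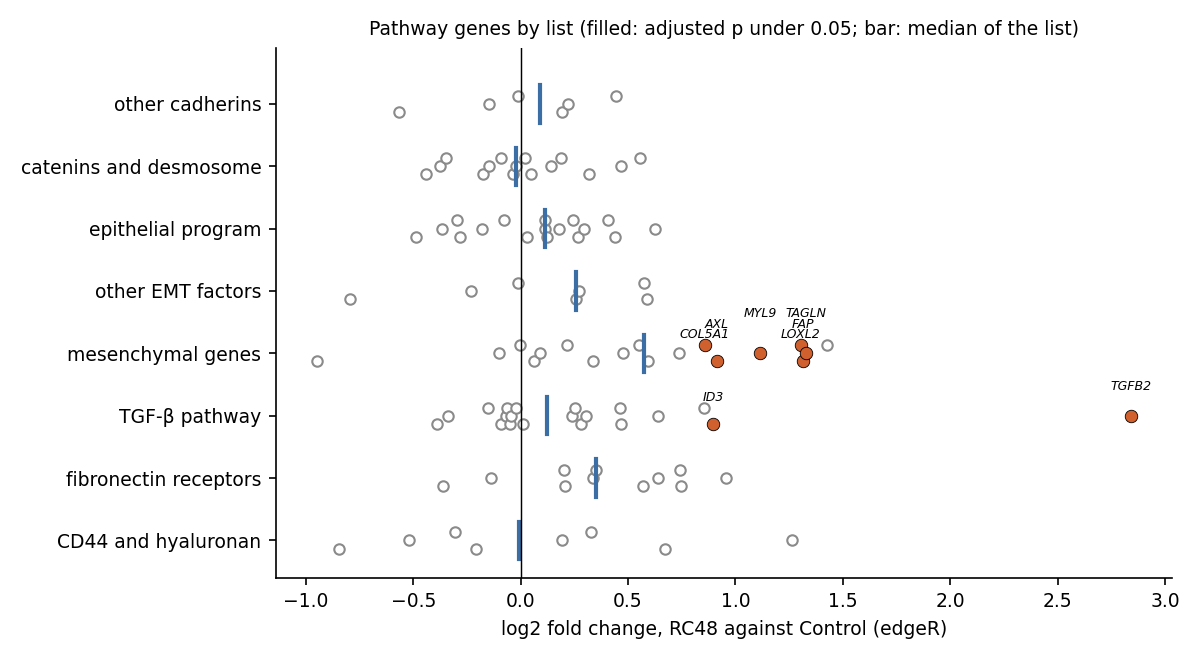
Log2 fold change of RC48 against Control for the tested genes of 8 lists (one point a gene). Filled orange points have an adjusted p under 0.05 and are named, and the blue bar is the median of a list. All 8 called genes lie to the right of 0, and the median of the mesenchymal list is 0.57.

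Mesenchymal genes other than VIM and FN1 gave most of the calls. Of 22 such genes, 18 were tested, 6 were called higher and 0 lower, beside 1.98% and 0.23% of all genes tested. The median log2 fold change of the 18 was 0.57. TAGLN, an actin-binding protein of smooth muscle and fibroblasts, measured 26.1, 29.2 and 21.8 CPM in Control and 73.5, 54.9 and 65.0 CPM in RC48 libraries (log2 fold change 1.33, edgeR adjusted p = 0.00795). FAP, a surface protease of activated fibroblasts, rose from 3.93, 3.998 and 3.30 CPM to 7.84, 10.7 and 9.35 CPM (1.31, adjusted p = 0.0128). In both genes every RC48 library was above every Control library.

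LOXL2, an enzyme that cross-links collagen, measured 40.8, 39.2 and 38.7 CPM in Control and 134, 74.7 and 84.6 CPM in RC48 libraries (log2 fold change 1.30, edgeR adjusted p = 0.0286). MYL9, a regulatory myosin light chain, measured 10.2, 9.68 and 8.71 CPM in Control and 26.8, 15.2 and 20.1 CPM in RC48 libraries (1.12, adjusted p = 0.0484). RC48 replicate 1 was the highest library for both. The other 2 called genes, singled out after their values were seen, were AXL, a receptor tyrosine kinase (0.91, adjusted p = 0.0243), and COL5A1, a fibrillar collagen chain (0.86, adjusted p = 0.0223). COL5A1 was no longer called after correcting for GC content (0.57, adjusted p = 0.116). The other 5 were, with log2 fold changes of 1.05 for TAGLN, 1.64 for FAP, 0.97 for LOXL2, 0.76 for MYL9 and 0.72 for AXL.

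Of the 18 mesenchymal genes tested, 15 had a positive and 3 a negative log2 fold change. Every RC48 library was above every Control library for 12 of the 18 and below for 1, beside 17.4% and 14.1% of all genes tested. The remaining mesenchymal genes were not called. COL3A1, a fibrillar collagen chain, had means of 280 CPM in Control and 412 CPM in RC48 libraries (log2 fold change 0.55, edgeR adjusted p = 0.0843). S100A4, a calcium-binding protein, had a log2 fold change of 0.00 (adjusted p = 0.986). SPARC, POSTN and THY1 had means under 0.3 CPM in both groups and were not tested. These genes, too, were named after their values were seen. The fibroblast markers DCN, PDGFRA and PDGFRB stayed under 0.12 CPM in every library. LUM, another fibroblast marker, measured 168 CPM on average in Control and 92.2 CPM in RC48 libraries (log2 fold change -0.86, adjusted p = 0.0688), and passed with the correction for GC content (-0.46, adjusted p = 0.0204). The summed level of the 6 listed fibroblast markers, which include COL1A1 and COL3A1 of the mesenchymal list, ranged from 444 to 475 CPM in Control and from 445 to 558 CPM in RC48 libraries. None of these 6 was at 0 in all libraries, and COL1A2 was not listed. In bulk RNA, also of a single cell line, a changed share of cells that express a gene and a changed RNA level per cell cannot be told apart.

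In the TGF-β pathway, a classical inducer of EMT, 20 of 21 genes were tested. Of these, 2 were called higher and 0 lower, beside 1.98% and 0.23% of all genes tested. The median log2 fold change of the 20 was 0.12. TGFB2, a TGF-β ligand, had 9, 5 and 14 counts in Control libraries and 39, 93 and 74 counts in RC48 libraries. Its level rose from a mean of 0.545 CPM to 3.93 CPM without overlap (log2 fold change 2.84, SE 0.429, edgeR adjusted p = 0.0166). ID3, an inhibitor of helix-loop-helix factors, measured 32.6, 36.9 and 33.8 CPM in Control and 70.9, 61.1 and 60.2 CPM in RC48 libraries (log2 fold change 0.90, adjusted p = 0.0142). The Control ID3 values were all below the RC48 values, and its log2 fold change was 0.63 after correcting for GC content. Of the 20 genes, 10 had every RC48 library above every Control library and 0 had the reverse, beside 17.4% and 14.1% of all genes tested. The ligand TGFB1, with means of 146 CPM in Control and 228 CPM in RC48, was among them without a call (0.64, adjusted p = 0.0843; 0.31 after correcting for GC content), and was called in 5 of 17 alternatives. The receptors TGFBR1 (-0.09, adjusted p = 0.805) and TGFBR2 (-0.07, adjusted p = 0.744) and the co-mediator SMAD4 (-0.06, adjusted p = 0.747) had log2 fold changes close to 0. TGFB1 and these 3 genes were named after their values were seen.

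**Figure D5:**
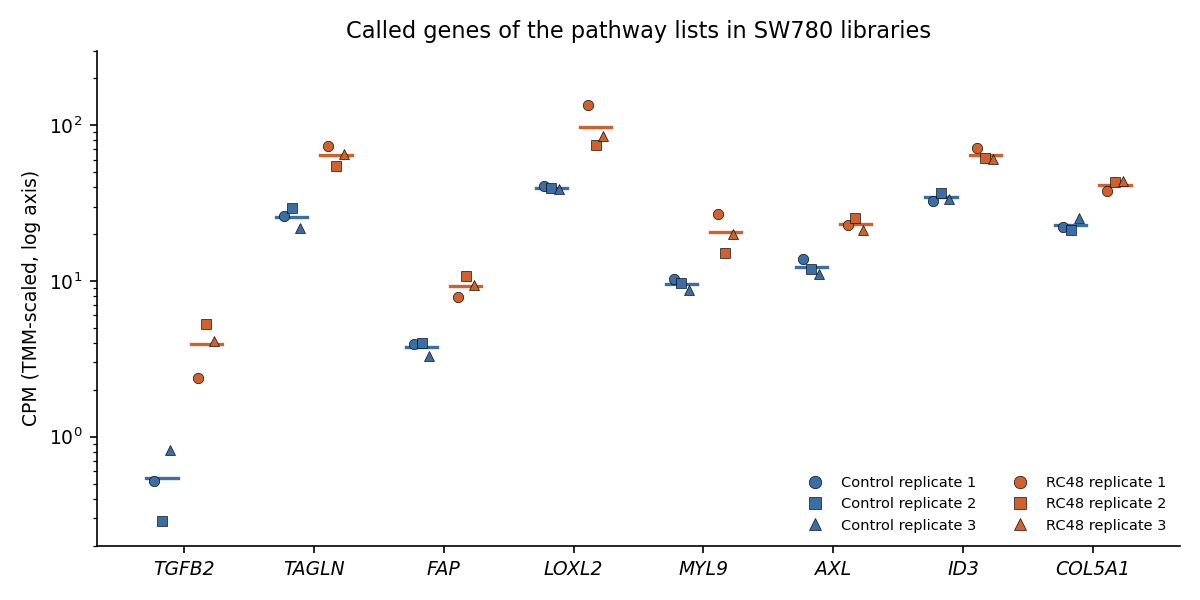
CPM on a log axis of the 8 called genes of the pathway lists in each Control (blue) and RC48 (orange) library, with the marker shape giving the replicate and the line giving the group mean. Every RC48 library lies above every Control library for all 8 genes, and TGFB2 has the lowest level, from 0.29 to 5.31 CPM.

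The partners and neighbours of the cadherins gave no calls, beside 2.21% of all genes tested. At that share, 0 calls do not set lists this small apart from other genes. Of 12 listed genes among the other cadherins, 6 were tested and 0 were called (median log2 fold change 0.09). Every RC48 library was above every Control library for 1 of the 6 and below for 1, beside 17.4% and 14.1% of all genes tested. The 2 most abundant were CDH13, a cadherin anchored to the membrane by a lipid, at 39.4 CPM in Control and 53.6 CPM in RC48 (0.44, edgeR adjusted p = 0.149), and CDH24 at 22.6 and 25.8 CPM (0.19, adjusted p = 0.563). CDH13 passed the test with the correction for GC content (0.59, adjusted p = 0.0401), and the sign of CDH24 turned (-0.17). Of 16 catenin, adherens junction and desmosome genes, 15 were tested and 0 were called (median -0.02). Every RC48 library was above every Control library for 4 of the 15 and below for 0. With limma on log2(TPM+1), over 5 libraries without RC48 replicate 2, 4 of 14 tested were called, 1 higher and 3 lower. That fit called 2637 of 12363 genes, 707 higher and 1930 lower. In edgeR without RC48 replicate 2, 5 were called, 2 higher and 3 lower, beside 14.1% of all genes in each direction. PERP, a protein of desmosomes, was at 845 CPM in Control and 763 CPM in RC48 (-0.15, adjusted p = 0.616), and its sign turned after correcting for GC content (0.06) and without RC48 replicate 1 (0.02). JUP, or plakoglobin, was at 647 and 950 CPM (0.55, adjusted p = 0.177), with 0.20 after correcting for GC content (adjusted p = 0.124).

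Genes of the epithelial program likewise gave no calls, with 0 of 17 tested and a median log2 fold change of 0.11. SPINT2, a protease inhibitor, was at 1229 CPM in Control and 1478 CPM in RC48 (0.27, edgeR adjusted p = 0.297), and ST14, the protease matriptase, at 369 and 489 CPM (0.41, adjusted p = 0.306). After correcting for GC content these were 0.02 for SPINT2 and 0.03 for ST14. Of the 17 genes, 11 had a positive and 6 a negative log2 fold change. Every RC48 library was above every Control library for 4 genes and below for 2, beside 17.4% and 14.1% of all genes tested. The 4 higher were SPINT2, SPINT1 (0.63, adjusted p = 0.12; 0.29 after correcting for GC content), ELF3 (0.29, adjusted p = 0.276; 0.04) and MARVELD3 (0.18, adjusted p = 0.373; 0.02). The 2 lower were EPCAM, an epithelial adhesion molecule (-0.49, adjusted p = 0.199), and ESRP1, an epithelial splicing regulator (-0.37, adjusted p = 0.209; -0.22 after correcting for GC content). Except for SPINT2, these genes were named after their values were seen. Among other EMT factors, TWIST1 and TWIST2 were not listed, and 7 of the 10 listed genes were tested with 0 called (median 0.26). Every RC48 library was above every Control library for 0 of the 7 and below for 1. ETS1 was at 219 CPM in Control and 262 CPM in RC48 (0.26, adjusted p = 0.335), and TCF3 at 64.3 and 77.6 CPM (0.27, adjusted p = 0.345). ETS1 passed with the correction for GC content (0.41, adjusted p = 0.0322), and TCF3 changed sign (-0.08). SNAI1, or Snail, the relative of SNAI2, had means of 0.136 and 0.309 CPM and was not tested.

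The receptors of fibronectin and the partners of CD44 also had 0 calls, beside 2.21% of all genes tested. Every RC48 library was above every Control library for 6 of the 11 tested receptor genes and below for 1. Of the 8 tested genes around CD44 and hyaluronan, 4 were above and 2 below in this way. The shares of all genes tested were 17.4% above and 14.1% below. Of 11 tested fibronectin receptor genes (median log2 fold change 0.35), the most abundant were the integrin chain ITGA3, at 1367 CPM in Control and 1579 CPM in RC48 (0.21, edgeR adjusted p = 0.486), and the syndecan SDC1, at 1003 and 782 CPM (-0.36, adjusted p = 0.17). With the correction for GC content, 5 of the 11 were called, 4 higher and 1 lower, beside 4.32% of all genes called higher and 3.53% lower in that fit, SDC1 being the lower (-0.67, adjusted p = 0.00897) and ITGA3 turning sign without a call (-0.15). Of 8 tested genes around CD44 and hyaluronan (median -0.01), MMP14, a membrane-bound matrix metalloprotease, was at 481 CPM in Control and 767 CPM in RC48 (0.67, adjusted p = 0.0878). EZR, or ezrin, which links membrane proteins to actin, was at 520 and 451 CPM (-0.21, adjusted p = 0.306; -0.34 after correcting for GC content). With the correction for GC content, 3 of the 8 were called, 2 higher and 1 lower, beside the same shares of all genes, and MMP14 was among the higher (0.35, adjusted p = 0.023).

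Markers of other cell types were read beside these lists. Of 7 listed leukocyte markers, 4 were tested and 0 called, beside 2.21% of all genes tested. All 4 had a positive log2 fold change (median 0.97). Every RC48 library was above every Control library for 3 of the 4, beside 17.4% of all genes tested. PTPRC, the common leukocyte antigen, had at most 0.061 CPM. Their sum was 17.8 to 18.4 CPM in Control and 19.6 to 38.4 CPM in RC48 libraries, most of it CD68, a lysosomal protein. The 6 endothelial markers summed to 27.9 to 29.7 CPM in Control and 18.4 to 25.03 CPM in RC48 libraries, with 0 calls. Every library is of the SW780 line, and the labels name no other cell type. The part of other cell types in the results for the mesenchymal genes was not tested.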

How the data were processed

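The 6 SW780 libraries hold 3 Control and 3 RC48 samples. The reads were filtered with SOAPnuke and mapped with Bowtie2, and RSEM was used for counting. Versions and the annotation are not given in the sources used here, and hg38 is the build in the submitters' processing notes. The authors deposited the estimated counts of RSEM, not normalized, of which 11.7% to 15.0% per library are not whole. The deposited TPM values, normalized by the authors for length and library size, were used for 5 libraries, and TPM of RC48 replicate 2 was not analysed here.

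After rounding, counts were filtered (filterByExpr) and scaled (TMM). RC48 was tested against Control in edgeR (glmQLFit and glmQLFTest, no covariates), and p-values were adjusted by Benjamini-Hochberg over all genes tested, with a threshold of 0.05 (R 4.3.3, edgeR 4.0.16). The authors' methods use limma on log2(TPM+1), which was kept as an alternative (limma 3.58.1, genes with a TPM of at least 1 in 2 or more libraries). Other alternatives were DESeq2 1.42.0, log2(TPM+0.1), RLE factors or plain library sizes in place of TMM, other filters (none, or a minimum of 10 counts in each library), the replicate number as a block, a correction for GC content, both together, Control replicates 1 and 2 averaged, and each library left out. GC content came from GENCODE v29 transcripts (16289 genes), and its loess trend (span 0.3) entered as an offset. Permutation tests were two-sided, exact and on log2 CPM. Fits were tested on simulated data.

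The members and the gene lists were chosen with earlier results of these data known. Named are the members, up to 4 called genes with the largest fold change per list or else its 2 most abundant tested genes, and the 3 genes most like CDH1 and CD44. Intervals on counts cover counting error only.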

Additional observations from a re-analysis of the deposited data

How the results depend on the processing

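The limits are the 3 libraries per group, the small distance between Control replicates 1 and 2, and the trend with GC content in RC48 replicates 1 and 3. Of all tested genes, 288 were called (258 higher), and 2499 had an unadjusted p under 0.05. DESeq2 called 681 genes, limma on log2(TPM+1) 2637 and on log2(TPM+0.1) 1168 (both on 5 libraries, without RC48 replicate 2), the correction for GC content 1020 (561 higher and 459 lower), this correction with the replicate block 648, and the averaging of Control replicates 1 and 2 gave 77. With a library left out, the count ranged from 68 to 3726. The count of members called, 1 in the fit reported, was 0 with limma on log2(TPM+0.1), with library sizes alone, with the replicate block and with averaged Control replicates, and 2 with the correction for GC content, alone or with the block. It ranged from 0 to 4 with a library left out. The 4 calls were those without RC48 replicate 2, where 28.3% of all genes tested were called (14.1% higher and 14.1% lower). The count of pathway genes called, 8 in the fit reported, was 20 with DESeq2 (19 higher and 1 lower). It was 19 with the correction for GC content (17 higher and 2 lower) and 15 with the correction and the block (14 higher and 1 lower). It was 0 with averaged Control replicates, and 0 to 41 with a library left out. With limma on log2(TPM+1) it was 30 of 90 tested, 18 higher and 12 lower, beside 707 higher and 1930 lower of 12363 genes. With limma on log2(TPM+0.1) it was 15, 14 higher and 1 lower, beside 379 higher and 789 lower of all genes. The cause of these shifts in the counts was not tested.

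The deviations of libraries with the same number from their group means correlated at -0.01, -0.12 and 0.02 for replicates 1, 2 and 3. Those of libraries with different numbers correlated at -0.10 to 0.13. With 3 libraries per group and a GC trend that differs between RC48 libraries, these values cannot settle whether replicate numbers pair the samples. With the replicate block 331 genes and 11 pathway genes were called, and the adjusted p of CDH2 was 0.0783.

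The direction of CDH1, CDH2, CDH3, FN1, SNAI2 and CD44 and of the 8 called pathway genes held in every alternative that gave a value. Log2 fold changes that turned sign were, with the correction for GC content and with this correction and the block, ZEB2 (0.22 and 0.23), CDH24 (-0.17 in both), PERP (0.0567 and 0.0565), TCF3 (-0.0778 and -0.0769) and ITGA3 (-0.15 in both). With a library left out, ZEB2 ranged from -0.26 (without RC48 replicate 1) to 0.00879 (without RC48 replicate 3). Between the fits without RC48 replicate 1 and those without RC48 replicate 2, CDH24 ranged from -0.0930 to 0.33, PERP from 0.0173 to -0.36 and ITGA3 from -0.0366 to 0.36. None of these genes was called in any of these fits.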
